A study of Mus musculus with 12 samples.

Results

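The 10 activity-induced immediate early genes Fos, Fosb, Junb, Egr1, Egr2, Egr3, Egr4, Arc, Npas4 and Nr4a1 were examined in the hippocampus of MSN and ICR mice. They were taken as the transcript clusters (the array's unit of measurement, 1 value for all probes of a transcript) that the platform annotation pairs with a single gene of that symbol. All 10 genes were found, each with 1 cluster, among 21789 single-gene clusters. None of the 10 passed the test for a difference between the strains. In each of the 10 genes the highest of the 12 values came from the same animal, MSN replicate 5. The 10 genes were correlated over the 12 mice, and without MSN replicate 5 and ICR replicate 1 no pair of genes passed after adjustment.

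The arrays held hippocampal RNA from 6 MSN and 6 ICR mice, 1 mouse per array. MSN (Madison) mice are an inbred strain with a manic phenotype, bred by selection from the outbred stock hsd:ICR (ICR), which served as the control. All 12 were adult males and separate animals, and the hippocampi were macrodissected after decapitation under deep isoflurane anesthesia, on the day after the mice had been watched in their home cages. The mice were housed 1 to a cage in a shared room and were weighed before they were killed. MSN is 1 inbred strain, whose ancestors were selected for wheel running and then for maternal defense and which was bred in a colony apart from ICR, so the effects of selection, drift and colony cannot be told apart. No drug or transgene is named for either strain, and no scan date or other batch is given in the sources used here.

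Immediate early genes are transcribed within minutes of strong synaptic input, without new protein having to be made first. Calcium entry through synaptic receptors and voltage-gated channels activates kinases that act on CREB and on the serum response factor, which are already bound to the promoters of these genes. Their messenger RNAs are short-lived, so that in the hippocampus their level is used as a marker of which neurons were recently active, for instance after exploration of a new place, handling or a seizure.

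Values are intensities on a linear scale, and every difference is a difference of means of log2(intensity + 16), which understates the change of dim clusters. A log2 fold change is that of MSN over ICR, tested with limma over 23410 clusters with at least 1 gene, with p-values adjusted by the Benjamini-Hochberg method over all of them. The median intensity of an array lay between 373, in MSN replicate 5, and 389, and intensities below 16 made up 0.32% to 0.478% of an array's clusters. Pearson's r over all tested clusters was 0.992 to 0.997 for 2 arrays of the same strain and 0.992 to 0.996 for an MSN and an ICR array. The arrays were measured in bulk tissue, where fewer active neurons and less RNA per active neuron cannot be told apart.

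Promoter windows are shown here as background, since CREB and the serum response factor act through promoter elements. Whether such elements bear on the co-variation of the 10 genes was not tested. RefSeq promoter windows of the build GRCm38.p6, from 250 bases before to 50 bases after a start site, were at hand for 7 of the 10 genes, with 11 windows in all. Entries for Egr1, Egr3 and Arc were not in the table. The windows were searched on both strands for the half-site TGACG of the cAMP response element (CRE), to which CREB binds, and for the CArG box, to which the serum response factor binds. In the 5 windows printed, from 5′ to 3′ of the gene's strand, capitals mark the half-sites (TGACG, or CGTCA on the other strand) and, in Egr2, the CArG box.
Fos (chr12:85473640-85473939, plus strand): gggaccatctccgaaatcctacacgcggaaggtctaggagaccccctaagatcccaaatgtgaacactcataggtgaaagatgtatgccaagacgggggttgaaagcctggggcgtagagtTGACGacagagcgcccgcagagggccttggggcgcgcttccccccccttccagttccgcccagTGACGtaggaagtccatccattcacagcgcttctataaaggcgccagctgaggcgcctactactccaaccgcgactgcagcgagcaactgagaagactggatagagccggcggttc
Nr4a1 (chr15:101266596-101266895, plus strand): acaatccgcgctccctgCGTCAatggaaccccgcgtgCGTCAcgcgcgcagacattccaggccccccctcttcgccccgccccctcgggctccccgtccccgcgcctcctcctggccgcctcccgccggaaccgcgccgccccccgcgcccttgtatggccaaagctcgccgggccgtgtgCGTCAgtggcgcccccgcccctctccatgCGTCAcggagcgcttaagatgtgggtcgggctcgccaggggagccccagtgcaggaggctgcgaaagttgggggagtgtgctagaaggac
Npas4 (chr19:4989922-4990221, minus strand): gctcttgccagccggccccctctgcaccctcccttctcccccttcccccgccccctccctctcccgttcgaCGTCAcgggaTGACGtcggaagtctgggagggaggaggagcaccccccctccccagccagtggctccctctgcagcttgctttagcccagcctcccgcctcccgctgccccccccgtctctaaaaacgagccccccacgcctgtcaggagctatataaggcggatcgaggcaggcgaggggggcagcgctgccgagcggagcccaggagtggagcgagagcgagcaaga
Egr2 (chr10:67537619-67537918, plus strand): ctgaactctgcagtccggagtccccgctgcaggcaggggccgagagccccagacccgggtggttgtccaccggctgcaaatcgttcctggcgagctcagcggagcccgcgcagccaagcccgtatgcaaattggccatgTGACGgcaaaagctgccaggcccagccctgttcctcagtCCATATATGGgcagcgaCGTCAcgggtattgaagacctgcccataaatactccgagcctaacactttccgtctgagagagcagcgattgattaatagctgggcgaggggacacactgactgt
Egr4 (chr6:85513540-85513839, minus strand): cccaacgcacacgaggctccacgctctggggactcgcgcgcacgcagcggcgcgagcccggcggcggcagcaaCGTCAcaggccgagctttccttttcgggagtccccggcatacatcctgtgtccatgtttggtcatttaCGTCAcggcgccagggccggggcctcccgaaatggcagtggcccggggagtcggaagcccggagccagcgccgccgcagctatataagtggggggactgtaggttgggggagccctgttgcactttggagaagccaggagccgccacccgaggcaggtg

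A CRE half-site was found in 7 of 7 genes and in 9 of their 11 windows, against 20.8% of the 32817 windows in the table. The Egr2 windows among these 9 overlap and hold the same half-sites, so they are not separate observations. The share of 20.8% is per window and not per gene. In Fos the half-sites began at positions -129 and -66 from the start site, in Egr4 at -177 and -109, and in Npas4 at -179 and -169. Nr4a1 held 4 half-sites, at -233, -213, -69 and -40, and 1.03% of all windows held 3 or more. Fosb had 1 half-site at -60 and Junb 1 at -106. In the Egr2 window printed, half-sites at -111 and -55 stood on either side of a CArG box at -72. Egr2 was the only one of the 7 genes with a CArG box, in 4 of its windows that in part overlap, against 1.63% of all windows. The full element TGACGTCA, which contains the half-site, was in none of the 11 windows (1.79% of all windows), nor was the AP-1 site TGANTCA (7.81%) or the Egr site GCGTGGGCG (0.612%). These matches describe the letters of the windows and say nothing about binding in these mice. The half-site was added to the search after the full element had been looked for.

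Fos, Fosb and Junb encode subunits of AP-1, the dimeric transcription factor in which a Fos protein pairs with a Jun protein. Fos lay between 137 and 381, with a median of 166, in MSN mice, and between 130 and 248, with a median of 153, in ICR mice. Its highest MSN value was that of replicate 5, the other 5 MSN mice ended at 172, and the strains overlapped. Fosb, whose splice form ΔFosB is known to build up with repeated stimulation, lay between 319 and 679 (median 395) in MSN mice and between 340 and 419 (median 384) in ICR mice. Again 1 MSN mouse, replicate 5, stood above all others, while the next highest of the 12 was an ICR mouse. Junb lay between 528 and 825 (median 572) in MSN mice and between 499 and 704 (median 541) in ICR mice. Both upper ends came from single animals, MSN replicate 5 and ICR replicate 1.

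The Egr genes encode zinc finger transcription factors that bind GC-rich sites. Egr1, which is needed for the late phase of hippocampal long-term potentiation in mice, lay between 1860 and 3463 (median 2060) in MSN mice and between 1779 and 2565 (median 1876) in ICR mice. Egr2, known outside neuronal activity for its part in myelination of peripheral nerves, lay between 330 and 1167 (median 361) in MSN mice and between 276 and 534 (median 352) in ICR mice. The Egr2 value of MSN replicate 5 was 3.44 times the median of the other 5 MSN mice, the widest such gap of the 10 genes. Egr3, an activator of Arc, lay between 1091 and 1712 (median 1139) in MSN mice and between 1053 and 1216 (median 1112) in ICR mice. Egr4 lay between 271 and 424 (median 280) in MSN mice and between 242 and 312 (median 278) in ICR mice. For Egr3 and Egr4 the MSN and ICR medians differed by less than the range of either strain, and only the upper end of the MSN range lay outside the ICR range.

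Npas4 is a transcription factor with a bHLH-PAS domain that responds to calcium entry in neurons and drives genes of inhibitory synapses. It lay between 443 and 1439 (median 613) in MSN mice and between 428 and 648 (median 585) in ICR mice. Nr4a1, an orphan nuclear receptor, lay between 1012 and 1867 (median 1154) in MSN mice and between 1012 and 1610 (median 1070) in ICR mice. Arc is the effector among the 10 genes, a protein of dendrites that takes part in the removal of AMPA receptors from synapses. It lay between 1059 and 2695 (median 1163) in MSN mice and between 796 and 1502 (median 1018) in ICR mice. In all 3 genes the strains overlapped, and the top 2 of the 12 values were those of MSN replicate 5 and ICR replicate 1.

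**Figure D1:**
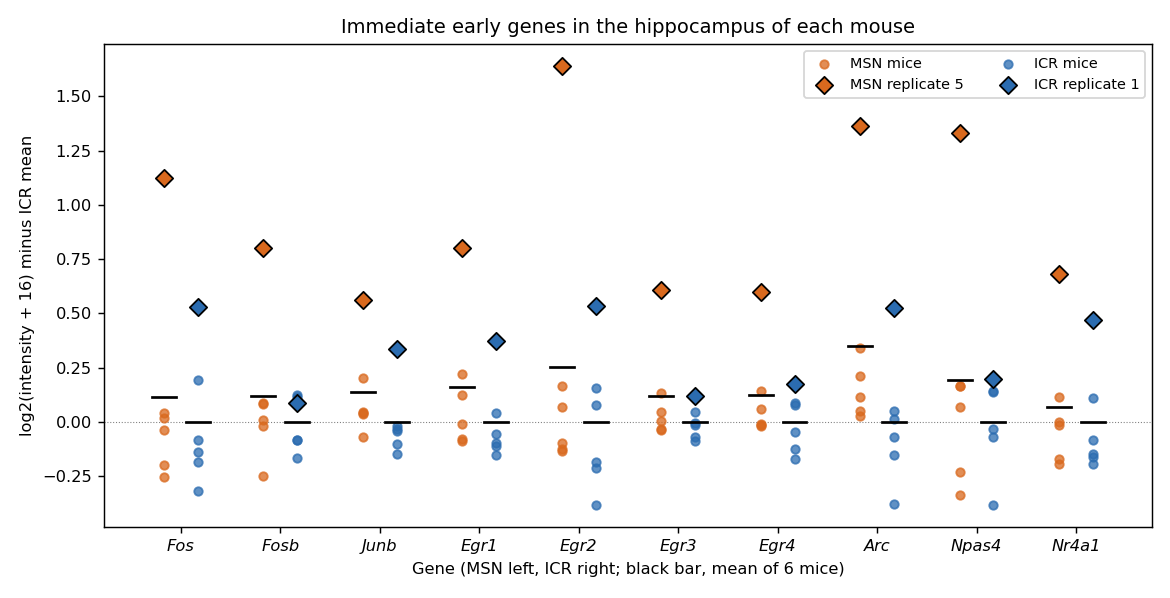
Level of each immediate early gene in each of the 12 mice, as log2(intensity + 16) minus the gene's ICR mean, on a linear axis. For each gene MSN is left and ICR right, with a bar at the mean of 6 mice. A dotted line marks the ICR mean. MSN replicate 5 is the highest of the 12 points in 10 of 10 genes, and ICR replicate 1 is the highest ICR point in 9.

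The first comparison asked whether hyperactive MSN mice had other levels of these genes than ICR mice. Arc had the highest log2 fold change, 0.35 (95% confidence interval -0.088 to 0.79, n = 6 each), with an adjusted p of 0.512 in limma and a two-sided exact permutation p of 0.169. Its mean intensity was 1413 ± 635 in MSN mice and 1057 ± 239 in ICR mice (SD). Egr2 followed with 0.25 (-0.31 to 0.82, limma adjusted p = 0.735) and means of 493 ± 331 in MSN mice and 372 ± 93.1 in ICR mice. Fos stood at 0.12 (-0.33 to 0.56, limma adjusted p = 0.855), with means of 194 ± 92.7 in MSN mice and 170 ± 43.3 in ICR mice. The other 7 genes lay between 0.07, in Nr4a1, and 0.20, in Npas4.

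None of the 10 genes passed an adjusted p of 0.05 in limma, where 0.777% of the tested clusters (182 of 23410) were called. None had an unadjusted limma p under 0.05 either, a level that 12.7% of the clusters reached. Adjusted p-values ran from 0.512 to 0.88, and exact permutation p-values from 0.169 to 0.688, where the smallest that 6 against 6 mice allow is 0.00216. The strains did not separate in any of the 10 genes, and only 1.44% of all clusters had MSN and ICR values that did not overlap. The confidence intervals of the 10 ratios of MSN over ICR lay between 0.798 and 1.77, so that differences within these bounds were not resolved with 6 mice per strain. All 10 fold changes were above 0, with a median of 0.13, while the median of all tested clusters was -0.0079 and 45.5% of them were above 0.

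That common direction depended on the animals included. Without MSN replicate 5, 5 of the 10 genes were above 0 (48.9% of all clusters), the median was 0.003, and fold changes ran from -0.084 in Fos to 0.15 in Arc. Without ICR replicate 1 the median was 0.21 and all 10 were above 0 (46.9% of all clusters). Arc and Junb then had an unadjusted limma p under 0.05, with a lowest adjusted p of 0.406. With both animals left out, a comparison chosen after their values had been seen, the median was 0.058 and 9 genes were above 0 (49.8% of all clusters). Arc then had a log2 fold change of 0.26 (0.074 to 0.44, limma adjusted p = 0.272) and Junb one of 0.12 (0.0092 to 0.23, limma adjusted p = 0.419), and these were the 2 genes with an unadjusted limma p under 0.05. No gene was called in any of these 3 fits. The share of all clusters at an unadjusted p under 0.05 in these fits is not given here.

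**Figure D2:**
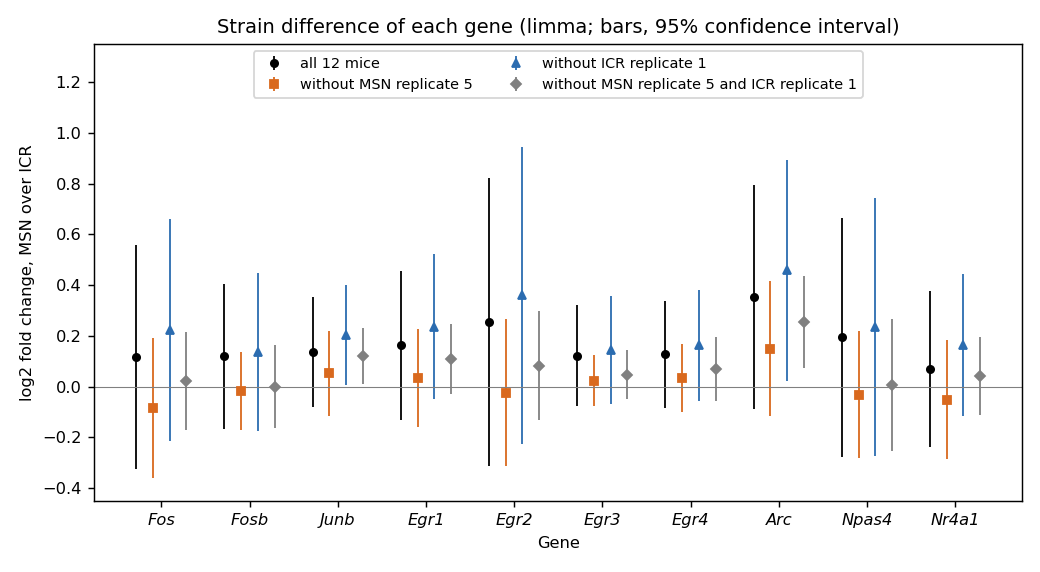
log2 fold change of MSN over ICR for each gene from limma, with 95% confidence intervals, over all 12 mice and without MSN replicate 5, ICR replicate 1 or both. Points over all 12 mice lie between 0.07 and 0.35, and without MSN replicate 5 they lie on both sides of 0.

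The animals that stood apart were looked at next. MSN replicate 5 was the highest of the 12 mice in 10 of 10 genes, against 8.65% of all tested clusters. Relative to the median of the other 5 MSN mice, its Egr2 was 3.44 times as high, Npas4 2.43, Arc 2.40, Fos 2.35, Fosb 1.76, Egr1 1.76, Nr4a1 1.63, Egr4 1.56, Egr3 1.53 and Junb 1.44 times. The 10 genes thus stood high in the same animal by unequal amounts, least in Junb and most in Egr2. By Dixon's test at 95% it was a high outlier of the MSN mice in 9 of 10 genes, Junb being the exception. Among all tested clusters 0.948% had this animal as a high outlier.

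ICR replicate 1 was the highest ICR mouse in 9 of 10 genes (19.6% of all tested clusters), the exception being Fosb, where ICR replicate 2 was higher. It was next after MSN replicate 5 among all 12 mice in 8 genes, with Fosb and Egr3 as the exceptions. Its ratios to the median of the other 5 ICR mice were 1.68 in Egr2, 1.66 in Fos, 1.54 in Nr4a1, 1.52 in Arc, 1.39 in Egr1 and 1.31 in Junb. The remaining 4 genes stood at 1.18 or less. By Dixon's test it was a high outlier among ICR mice in Junb and Egr1, against 0.402% of all clusters. Egr2, Fos and Arc were thus among the 4 genes with the widest gaps in both animals, whereas Npas4 was 2.43 times as high in MSN replicate 5 and 1.18 times in ICR replicate 1.

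The spread between mice of a strain was wide for these genes. The within-strain SD of the 10 genes had a median of 0.282 on the log2 scale, and that of all tested clusters a median of 0.091. Ranked among all clusters, the SD of the 10 genes fell between percentiles 93.6, for Egr3, and 99.9, for Egr2. Over the 10 mice that remain without MSN replicate 5 and ICR replicate 1, the median was 0.13 against 0.0871 for all clusters. Npas4 then stood at percentile 97.2, Egr2 at 94.3, Fos at 91.4 and Arc at 88.6, while Junb stood at 41.5 and Egr3 at 23.3. The SD itself was 0.54 over 12 mice and 0.183 over 10 for Egr2, 0.447 and 0.224 for Npas4, 0.42 and 0.163 for Fos, and 0.417 and 0.15 for Arc. The spread of these 4 genes was thus much smaller over 10 mice, though its rank among all clusters stayed high.

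Since MSN is inbred and ICR outbred, the spread itself was also compared between them. The SD was larger in MSN than in ICR mice for 10 of 10 genes and for 50% of all clusters. Without MSN replicate 5 it was larger in MSN mice for 2 genes, Fosb and Npas4 (43.9% of all clusters), and without both high animals for 6 (45.6%). These animals had been picked for their high values in the 10 genes, so these counts follow in part from that choice. In Fos it was 0.507 in MSN mice and 0.31 in ICR mice, and in Npas4 0.595 in MSN mice and 0.214 in ICR mice. Without MSN replicate 5, the MSN value was 0.133 in Fos, below that of ICR mice, and 0.234 in Npas4. A two-sided exact permutation test of the absolute deviations from the strain median gave p-values from 0.422 to 0.981, none under 0.05, a level that 5.07% of all clusters reached. The spread was thus not shown to differ between the strains in any of the 10 genes.

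**Figure D3:**
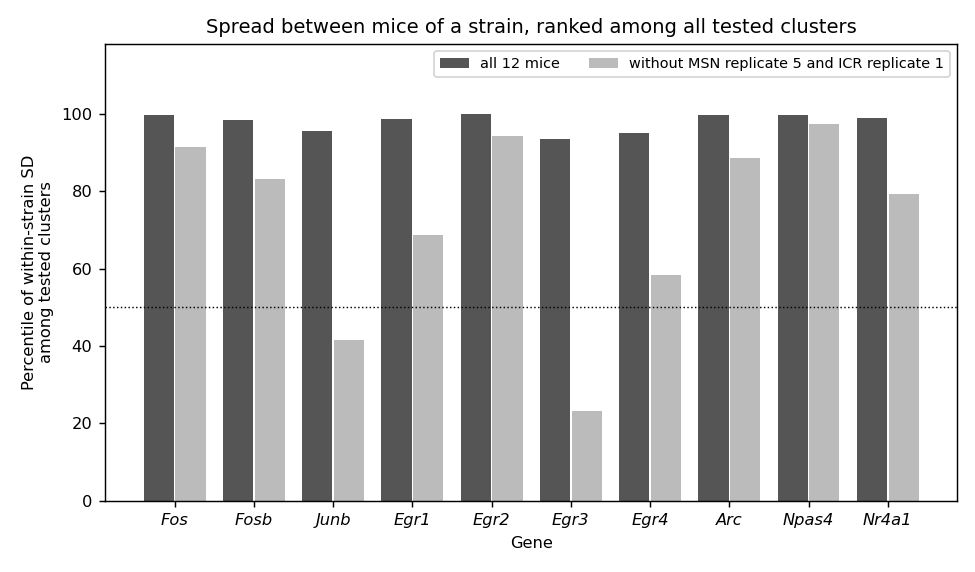
Percentile of each gene's within-strain SD of log2(intensity + 16) among all tested clusters, over all 12 mice and over the 10 mice without MSN replicate 5 and ICR replicate 1, with a dotted line at the 50th percentile. Over 12 mice all 10 genes lie at or above 93.6, and over 10 mice they spread from 23.3 in Egr3 to 97.2 in Npas4.

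Co-variation was measured on log2(intensity + 16) minus the strain mean, so that a difference between strains could not make a correlation. Over the 12 mice, Pearson's r of the 45 pairs of genes had a median of 0.868 and ran from 0.635, between Fosb and Junb, to 0.977, between Egr2 and Arc. Spearman's rho had a median of 0.643 and ran from 0.168 to 0.895. By a two-sided exact permutation test within strains with Benjamini-Hochberg adjustment over the 45 pairs, 40 pairs had an adjusted p under 0.05 for r and 21 for rho. The genes had been chosen with earlier results of these data known, so these p-values describe the pairs and are no independent evidence. Each gene was also set against the mean standardized profile of the other 9, where r ran from 0.845 for Npas4 to 0.987 for Egr2. Of the single-gene clusters outside the 10 genes, 0.303% (66) had an r with the mean of the 10 genes that reached 0.845.

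Both strains held the co-variation, though each with 1 leading animal. Within the 6 MSN mice r had a median of 0.947 (0.77 to 0.995), and 25 of 45 pairs had an unadjusted exact permutation p under 0.05. Within the 6 ICR mice the median was 0.706 (-0.213 to 0.967), with 16 such pairs. The difference between the strains was not tested.

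The correlations were smaller without MSN replicate 5, and smaller still when ICR replicate 1 was left out with it. Both animals had been picked for their high values in these genes. When the 2 mice farthest from the median of the first gene of a pair were left out, the median r was 0.489 (-0.173 to 0.844), and those mice were MSN replicate 5 and ICR replicate 1 in 36 of 45 pairs. Without MSN replicate 5 the median was 0.587 and 10 pairs had an adjusted permutation p under 0.05. Without both, over 10 mice, the median r was 0.439 (-0.515 to 0.824), 35 pairs were above 0, 10 had an unadjusted permutation p under 0.05, and none passed after adjustment.

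Among the 10 remaining mice r differed widely from gene to gene. Differences between correlations were not tested, and the p-values that follow are unadjusted. Egr2 and Arc had r = 0.977 over 12 mice and 0.824 over 10 (exact permutation p = 0.000145 and 0.00778), and Fos and Egr2 had 0.972 and 0.80 (p = 0.000106 and 0.0108). Fosb and Egr3, which also kept a positive r, had 0.946 over 12 mice and 0.735 over 10. Against the other 9 genes, r over 10 mice was 0.86 for Egr2, 0.851 for Nr4a1, 0.825 for Fos, 0.714 for Egr1 and 0.707 for Arc. It was 0.503 for Fosb, 0.348 for Egr4, 0.172 for Egr3, 0.115 for Npas4 and 0.0608 for Junb. Npas4 and Fosb had r = 0.709 over 12 mice and -0.439 over 10 (exact permutation p = 0.134 and 0.262), so that the sign of this pair turned with the 2 animals.

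**Figure D4:**
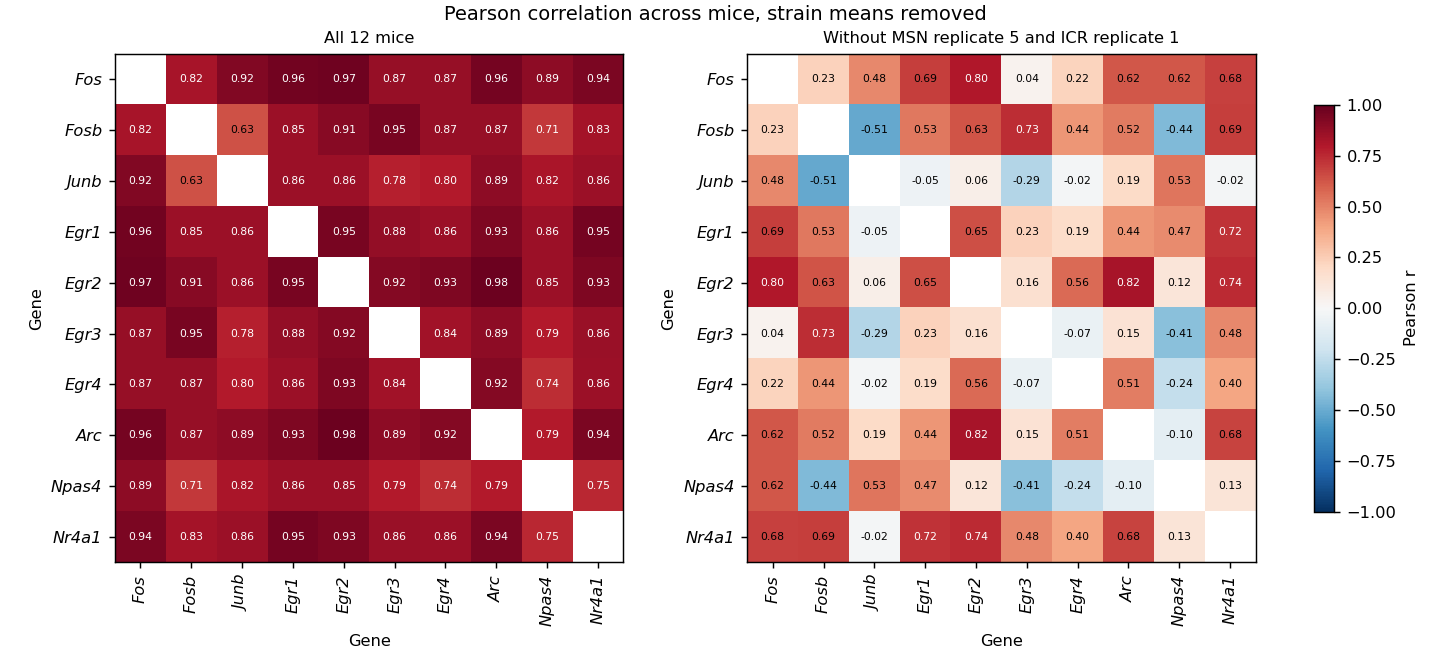
Pearson's r of each pair of the 10 genes with strain means removed, over 12 mice on the left and over the 10 mice without MSN replicate 5 and ICR replicate 1 on the right, on a color scale from -1 to 1. All 45 values are above 0 on the left, and 35 of 45 on the right.

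Other genes induced by neuronal activity were read from lists written for this purpose. Of 19 other activity-induced transcription factors none was called by limma (0.777% of all clusters) and 5 had an unadjusted limma p under 0.05 (12.7%). Log2 fold changes of 11 were above 0 (45.5% of all clusters), with a median of 0.029. The 3 with the smallest p were Klf2 (-0.15, adjusted p = 0.252), Maff (0.13, adjusted p = 0.274) and Ier5 (0.24, adjusted p = 0.288). MSN replicate 5 was the highest of 12 mice in 8 of the 19, against 8.65% of all clusters. It was a high outlier in 1, Ier5 (0.948% of all clusters), with 459 against 272 to 325 in the other MSN mice. The mean log2 level of the list was 9.345 in MSN replicate 5, the highest of the MSN mice. The r of this mean level with the mean profile of the 10 genes was 0.947 over 12 mice and 0.799 over 10. Single genes followed the profile less closely. Over 12 mice 7 of the 19 had an r over 0.5 (8.23% of all single-gene clusters), and the median r was 0.435.

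Of 27 activity-induced effector genes, which encode secreted peptides, synaptic proteins and phosphatases, 26 were measured and none was called by limma (0.777% of all clusters). Of these, 6 had an unadjusted limma p under 0.05 (12.7% of all clusters). Log2 fold changes of 21 were above 0 (45.5% of all clusters), with a median of 0.079. The smallest p was that of Nrn1, which encodes the membrane-anchored growth factor neuritin, with 6009 ± 355 in MSN mice and 5051 ± 428 in ICR mice (SD, n = 6 each; log2 fold change 0.25, limma adjusted p = 0.0603). Dusp4, a phosphatase of MAP kinases, followed with 425 ± 58.4 in MSN mice and 344 ± 32.1 in ICR mice (0.29, limma adjusted p = 0.134), and then the kinase gene Plk3 (0.13, limma adjusted p = 0.315). Nrn1 did not follow the 10 genes (r = 0.187 with their mean profile over 12 mice), and Dusp4 had r = 0.79 over 12 mice and 0.833 over 10.

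MSN replicate 5 was the highest of 12 mice in 20 of the 26 effector genes, against 8.65% of all clusters. It was a high outlier of the MSN mice in 5 of them (0.948% of all clusters), Pcsk1, Vgf, Dusp1, Dusp6 and Cyr61. These 5 and the examples that follow were chosen after their values were seen. Homer1, a scaffold of the postsynaptic density, was 3225 in MSN replicate 5, 1863 to 2332 in the other MSN mice and at most 2330 in ICR mice. Inhba, the activin subunit, was 1029 in MSN replicate 5 and 405 to 618 in the other MSN mice, and Ptgs2, the inducible cyclooxygenase, 1516 and 654 to 976. Dusp1, the phosphatase of nuclear MAP kinases, was 1965 in MSN replicate 5 and 964 to 1232 in the other MSN mice, and 1922 in ICR replicate 1. Dusp1 thus shared both high animals with the 10 genes, whereas Inhba stood at 405 in ICR replicate 1, within the ICR range of 397 to 597. Of the 26 genes 18 had an r over 0.5 with the mean profile of the 10 genes, as had 8.23% of all single-gene clusters, with a median of 0.709 over the list. The r of the list's mean level was 0.929 over 12 mice and 0.486 over 10.

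**Figure D5:**
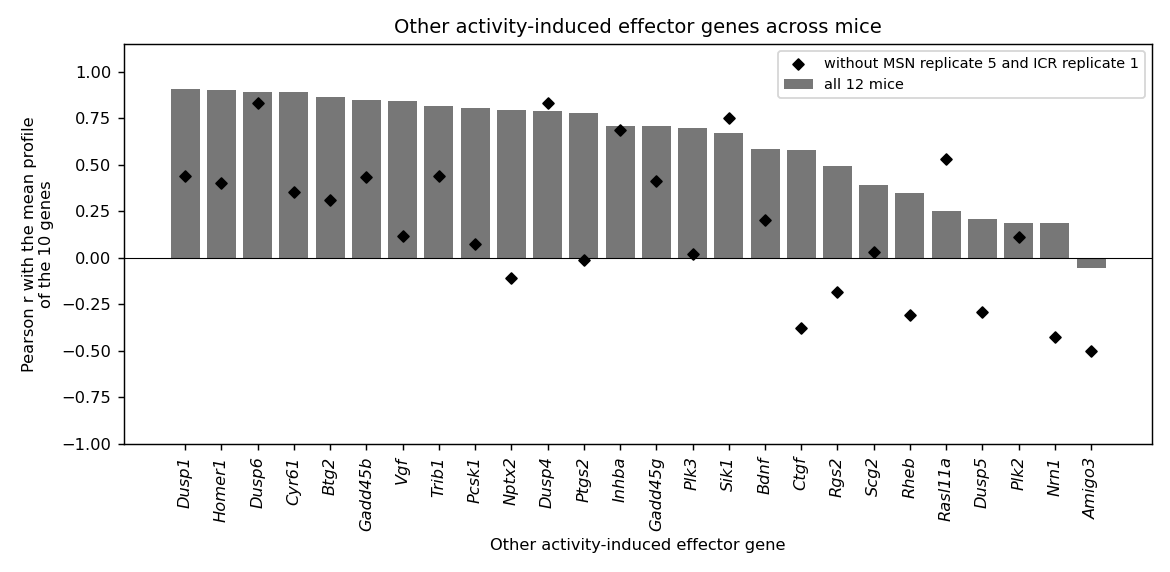
Pearson's r of each measured activity-induced effector gene with the mean standardized profile of the 10 immediate early genes, strain means removed, over all 12 mice (bars) and without MSN replicate 5 and ICR replicate 1 (points). Over 12 mice 18 of 26 genes have an r over 0.5.

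Of 29 upstream signaling genes (among them kinases and the factors CREB and SRF), 25 were measured and none was called by limma (0.777% of all clusters). Of the 25, 3 had an unadjusted limma p under 0.05, against 12.7% of all clusters. These 3 were Crtc2 (-0.12, adjusted p = 0.234), Rps6ka5 (-0.13, adjusted p = 0.251) and Map2k1 (-0.10, adjusted p = 0.282). The list had a median log2 fold change of -0.021. In 3 of its genes r with the mean profile of the 10 genes was over 0.5, against 8.23% of all single-gene clusters. Of 8 glucocorticoid-induced genes, which respond to stress hormone, 7 were measured. None was called by limma (0.777% of all clusters) or had an unadjusted limma p under 0.05 (12.7%). The r of the list with the 10 genes was -0.08 over 12 mice and 0.174 over 10. Per1 was counted in this list and among the transcription factors.

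Markers of the cell types that a dissected hippocampus can hold were set beside these results. Dentate granule cell markers (8 of 8 measured) and markers of CA1 to CA3 pyramidal cells (11 of 11) had mean intensities of at least 143.5 and 204.4, and the mean level of each list had an r of -0.098 and -0.387 with the 10 genes over 12 mice and of 0.312 and 0.383 over 10, so that both signs turned with the 2 high animals. Of the pyramidal cell markers Bok was called, at 1091 ± 84.4 in MSN mice and 849 ± 91.9 in ICR mice (log2 fold change 0.36, limma adjusted p = 0.0305). It was the only called gene of all the lists, where 0.777% of all tested clusters were called. The mean level of the oligodendrocyte markers (7 of 8 measured) ran the other way from the 10 genes, with r = -0.797 over 12 mice and -0.635 over 10. Single markers were all negative over 12 mice. Over 10 mice they ran from -0.772 in Mog to 0.352 in Mbp, the only marker of the list with a positive r. Their mean log2 level was 11.22 in MSN replicate 5, the lowest of the MSN mice (11.22 to 11.50), and 11.24 in ICR replicate 1, the lowest of the ICR mice (11.24 to 11.42). Microglia markers (8 of 8) had r = 0.534 over 12 mice and 0.591 over 10, with mean levels of 9.475 to 9.713 in MSN mice and 9.382 to 9.606 in ICR mice. The part of these cell types in the co-variation was not tested.

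Choroid plexus markers (10 of 10 measured), which mark a tissue next to the hippocampus, had mean log2 levels of 8.832 to 10.29 in MSN mice and 8.577 to 10.36 in ICR mice. MSN replicate 5 was the fourth of 6 MSN mice in this list and ICR replicate 1 the lowest of 6 ICR mice, and the r with the 10 genes was -0.195 over 12 mice and 0.161 over 10. Markers of thalamus and habenula (7 of 7) had r = -0.133 over 12 mice and 0.468 over 10, so that the sign turned in both lists. For astrocyte markers (8 of 8) r was 0.34 over 12 mice and 0.455 over 10, for endothelial markers (7 of 8) 0.399 and 0.402, and for blood cell markers (3 of 9) -0.188 and -0.144. The blood markers rested on few genes, since none of the globin genes had a single-gene cluster under its symbol here. Of the 8 astrocyte markers 4 had an unadjusted limma p under 0.05 (12.7% of all clusters), and none was called (0.777%). The smallest p-values were those of Gfap (log2 fold change -0.30, limma adjusted p = 0.101), Aqp4 (-0.23, adjusted p = 0.148) and Aldh1l1 (0.19, adjusted p = 0.187). Log2 fold changes of 2 of the 8 were above 0.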

How the data were processed

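Hippocampal RNA of 6 MSN and 6 ICR mice (400 ng each) was hybridized to Affymetrix Mouse Gene 1.0 ST arrays. The deposited intensity values, 1 per transcript cluster and array on a linear scale, were made by the authors in Affymetrix Power Tools 1.12.0, with the PLIER algorithm and with background estimated from probes of equal GC content. Since PLIER had normalized the arrays, no further scaling was applied in the main analysis.

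From these, log2(intensity + 16) was computed, and MSN was compared with ICR, with no covariate, by lmFit and eBayes of limma 3.58.1 under R 4.3.3 (prior degrees of freedom 4) over 23410 of 35556 clusters, those with at least 1 gene in the platform annotation. Correlations, permutation tests and Dixon's test were computed in Python 3.11.15. Within strains the exact test used the 720 rearrangements of 6 mice in each strain. The fit was checked on simulated data. The number of arrays limits the precision.

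The 10 genes, the gene lists and the tests were chosen with earlier results of these data known. A list gene was matched by symbol, gene ID or a unique older name and was represented by its cluster with the highest mean. Named genes are the 10 genes, up to 3 genes per list with the smallest p, and the 8 clusters most and 3 least correlated with the 10 genes, while other genes were picked once their values were known. Alternatives were pseudocounts of 1 and 64, untransformed intensities, quantile and median scaling, trend and robust options, array weights, other sets of clusters, the replicate number as a block, and each array left out.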

Additional observations from a re-analysis of the deposited data

Results flagged for a closer look

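By Dixon's test, in which the gap of the highest animal to the next is divided by the range of its group of 6 mice and compared with the critical value at 95%, MSN replicate 5 stood apart as a high value in 9 of the 10 genes. The ratio was 0.831 for Egr2, 0.786 for Fos, 0.766 for Arc, 0.741 for Egr4, 0.739 for Egr3, 0.699 for Npas4, 0.678 for Fosb, 0.651 for Egr1 and 0.649 for Nr4a1. ICR replicate 1 stood apart as a high value of the ICR mice for Junb, with a ratio of 0.737, and for Egr1, with 0.631. Chance flags about 1 in 20 groups, and the genes are correlated, so the flags do not count as separate observations. Over all tested clusters 0.948% had MSN replicate 5 as a high outlier, while among the other 5 MSN mice this share lay between 0.162% and 0.602% and among the 6 ICR mice, each within ICR, between 0.218% (replicate 4) and 1.16% (replicate 3).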

How the results depend on the processing

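None of the 10 genes was called under any of 23 alternatives, where adjusted p-values of single genes lay between 0.272 and 1, and Fos and Egr4 had no value among clusters above the median. Leaving out 1 array in turn gave log2 fold changes of -0.0843 to 0.223 for Fos, -0.0177 to 0.193 for Fosb, -0.0238 to 0.36 for Egr2, -0.032 to 0.301 for Npas4 and -0.0522 to 0.164 for Nr4a1, each below 0 only without MSN replicate 5. Fosb was also at -1.58e-05 without MSN replicate 5 and ICR replicate 1 together, which was chosen after seeing the data.

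The 182 called clusters became 279 with a pseudocount of 64, 315 with array weights (lowest weight 0.597, MSN replicate 5), 94 without both animals, and 91 to 210 when 1 array was left out. The called list gene (Bok alone in the main analysis) became 2 genes with a pseudocount of 64, array weights, the trend and robust options or clusters above the median, 0 with all clusters or without both animals, and 0 to 2 when 1 array was left out. The 40 correlated pairs became 0 without both animals, and 10 to 42 when 1 array was left out, with 10 without MSN replicate 5 and 24 without ICR replicate 1.

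The replicate numbers did not pair the mice: same-numbered deviations correlated at -0.126 to 0.125, over 0.1 in 1 of 6 pairs, and 3 of 12 arrays correlated best with their own number. With the replicate number as a block, 42 clusters, 0 of the 10 genes and 0 list genes were called. The causes of these changes were not tested. The 6 mice per strain limit what could be resolved, and MSN replicate 5 alone turns 5 of 10 fold changes. The median correlation was lower without it and lowest without it and ICR replicate 1, but was not lower without ICR replicate 1 alone.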

Other observations

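Outside the 10 genes and by the rule for naming, the single-gene clusters whose values ran most closely with the mean profile of the 10 genes over 12 mice were Spen (r = 0.952), D430041D05Rik (0.948), Gfod1 (0.946), Ect2l (0.929), Kcnf1 (0.927), Nol4 (0.916), Gpr3 (0.912) and 2310011J03Rik (0.91). Over the 10 mice without MSN replicate 5 and ICR replicate 1, r was 0.868 for Spen, which encodes a large RNA-binding corepressor, and 0.713 for D430041D05Rik, but 0.0606 for Gfod1. Kcnf1, a potassium channel subunit, was 568 in MSN replicate 5 and 350 to 368 in the other MSN mice, and 535 in ICR replicate 1 and 386 to 504 in the other ICR mice. Gpr3, a receptor that raises cAMP without a known ligand, was 678 in MSN replicate 5 and 400 to 491 in the other MSN mice. The clusters that ran most against the profile were Zcchc13 (r = -0.934), Slc10a5 (-0.927) and AY512915 (-0.906). None of these clusters differed between MSN and ICR mice at an adjusted p under 0.05 in limma. They were picked from 21779 clusters for their correlation, so the values are a description.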
